A study of Homo sapiens with 12 samples.

Results

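The core genes of the Hippo pathway were examined in 2 lines of triple-negative breast cancer, MDA-MB-468 and also MDA-MB-231, with and without knockout (KO) of SMARCA4. Members were chosen by gene symbol, without a rule on their values, though with earlier results of these data known. They were the co-activators YAP1 and WWTR1 (the gene of TAZ), and the DNA-binding factors TEAD1, TEAD3 and TEAD4. The others were the kinases STK3, LATS1 and LATS2, and the adaptors SAV1 and NF2. All 10 symbols are in the expression table, out of 11529 genes. Each cell line had 3 control and 3 SMARCA4 KO samples, 12 in all. Control samples are called WT in the titles and Control in the descriptions, and have the genotype wild type. The sources used here do not tell whether they were parental cells or cells with a nontargeting vector, so in KO differences the loss of SMARCA4 and any effect of transduction and selection cannot be told apart. KO cells were made with lentivirus carrying Cas9 and 1 guide RNA against SMARCA4, the ATPase of the SWI/SNF chromatin remodeling complex, and were kept as polyclonal pools after puromycin selection, so a KO sample is a mixture of edited cells. MDA-MB-468 is known as a basal line with epithelial features and MDA-MB-231 as a mesenchymal-like line, which is also known for a truncating mutation of NF2.

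In the Hippo pathway, the kinases STK3 and STK4 (MST2 and MST1), held by the scaffold SAV1, phosphorylate LATS1 and LATS2. NF2 (merlin) brings LATS kinases to the membrane for this step. The LATS kinases phosphorylate YAP and TAZ, which keeps them in the cytoplasm or leads to their breakdown. Without this phosphorylation, YAP and TAZ enter the nucleus, bind TEAD factors and raise genes of growth, adhesion and migration, and in breast cancer cells they are known for links with mesenchymal traits and metastasis. The pathway acts largely through phosphorylation and location of these proteins, which RNA sequencing does not measure.

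The guide directs Cas9 to 1 exact site in GRCh37, at chr19:11095933-11095952 on the plus strand. It lies in exon 3 of the MANE transcript of SMARCA4, which the labels count as exon 4 of another transcript. It is shown because every KO sample rests on this single cut, with the adjacent NGG motif that Cas9 needs in capitals.
SMARCA4 guide target: atggtccctctcgcagcccaTGG

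The letters GGAATG, or CATTCC on the other strand, are the core that TEAD factors are known to bind. They were searched in RefSeq promoters (GRCh38.p14) of 300 bases, 250 before and 50 after each start site. Of the 10 members, 7 had a promoter there, with 10 promoters in all. The core was held by 2 of these 10, those of YAP1 and LATS2, against 14% of all 35116 promoters. Windows of these promoters are shown because the members of highest and lowest level in control MDA-MB-468 cells are the ones with a match, with the core in capitals. The YAP1 window lies at chr11:102110273-102110302 on the plus strand and the LATS2 window at chr13:21061560-21061589 on the minus strand.
YAP1 window: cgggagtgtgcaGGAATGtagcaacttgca
LATS2 window: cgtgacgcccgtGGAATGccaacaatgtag
The first base of the core stands at position -162 from the YAP1 start site and at position 10 from that of LATS2. A match of letters is a description of the window, and binding was not measured.

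SMARCA4 itself was checked in every sample first. In MDA-MB-468 cells it had 96.9, 97.4 and 101 FPKM in the controls and 39.7, 43.5 and 47.7 FPKM in the KO samples. In MDA-MB-231 cells it had 67.5, 71.5 and 67.0 FPKM in the controls and 21.0, 23.9 and 22.6 FPKM in the KO samples. KO samples were below controls in both lines, and transcript remained in each of them. On the log2(FPKM + 1) scale the difference was -1.16 ± 0.075 (SE) in MDA-MB-468 (limma, Benjamini-Hochberg adjusted p = 0.0137) and -1.57 ± 0.061 in MDA-MB-231 cells (limma, adjusted p = 0.00143). FPKM, fragments per kilobase of transcript scaled to the total of mapped fragments, is corrected for gene length, so that levels of different genes can be set side by side.

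Replicates of a group correlated across genes at r of 0.989 to 0.995. The read depth is unknown. The 10 epithelial markers summed to 5462 to 5862 FPKM in control MDA-MB-468 and 829 to 1249 FPKM in control MDA-MB-231 cells, with KO samples at 6315 to 6659 and 1231 to 1383 FPKM. The 6 mesenchymal markers analysed, of 8 listed, summed to 842 to 982 and 1872 to 2112 FPKM in the controls and to 769 to 887 and 1622 to 1779 FPKM in KO samples of the same lines. VIM, the mesenchymal filament, had a mean of 2.61 FPKM in MDA-MB-468 controls against 1309 FPKM in those of MDA-MB-231, and SNAI2 was at 0 in every MDA-MB-468 sample. These sums rest on a few abundant genes, and the markers did not move as 1 group. In MDA-MB-468 KO cells 5 of the 10 epithelial markers were higher and 5 lower: the keratin KRT8 had a log2 difference of 0.50 (limma, adjusted p = 0.0318) and KRT18 one of 0.25, while EPCAM (-0.09), CDH1 (-0.22), CLDN7 (-0.26) and ESRP1 (-0.13) were on the other side, short of the threshold. Of the 6 mesenchymal markers there, 2 were higher and 3 lower, with CD44, which makes up most of the sum, at -0.12 and VIM at 0.42. In MDA-MB-231 KO cells 8 epithelial markers were higher and 2 lower, with CDH1 at 0.54 (adjusted p = 0.0442). There 2 mesenchymal markers were higher and 4 lower, with VIM at -0.39 (adjusted p = 0.0309), SNAI2 at -0.45 (0.0152) and CD44 at 0.30 (0.106). The part of these markers in the results below was not tested. Of 9 leukocyte markers only CD14 was analysed, and none of 8 fibroblast and endothelial markers was (0 of 8). CD14 had 46.1 to 52.9 FPKM in control and 20.8 to 63.2 FPKM in KO MDA-MB-468 samples, and 0.79 to 1.39 and 2.65 to 4.90 FPKM in MDA-MB-231 samples.

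YAP1 was the most abundant member in every group, and the LATS kinases stood near the bottom. In control MDA-MB-468 cells YAP1 had 67.0 ± 2.05 FPKM (SD, n = 3), followed by TEAD3, WWTR1, TEAD4, STK3, NF2, SAV1, TEAD1, LATS1 and LATS2, which had 4.83 ± 0.344 FPKM. The sample ranges of TEAD4 and STK3 overlapped, as did those of STK3 and NF2, so these neighbours in the order cannot be ranked. In control MDA-MB-231 cells the order was YAP1 with 64.4 ± 2.09 FPKM, TEAD1, WWTR1, TEAD3, SAV1, TEAD4, STK3, LATS2, LATS1 and NF2, which had 2.42 ± 0.0907 FPKM. Here the ranges of WWTR1 and TEAD3 overlapped, and those of TEAD3 and SAV1. Of all genes, 85.6% had a lower mean than YAP1 in control MDA-MB-468 and 84.8% in control MDA-MB-231 cells. For NF2 this share was 58.1% in MDA-MB-468 against 11.1% in MDA-MB-231 cells, the widest gap of a member.

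**Figure D1:**
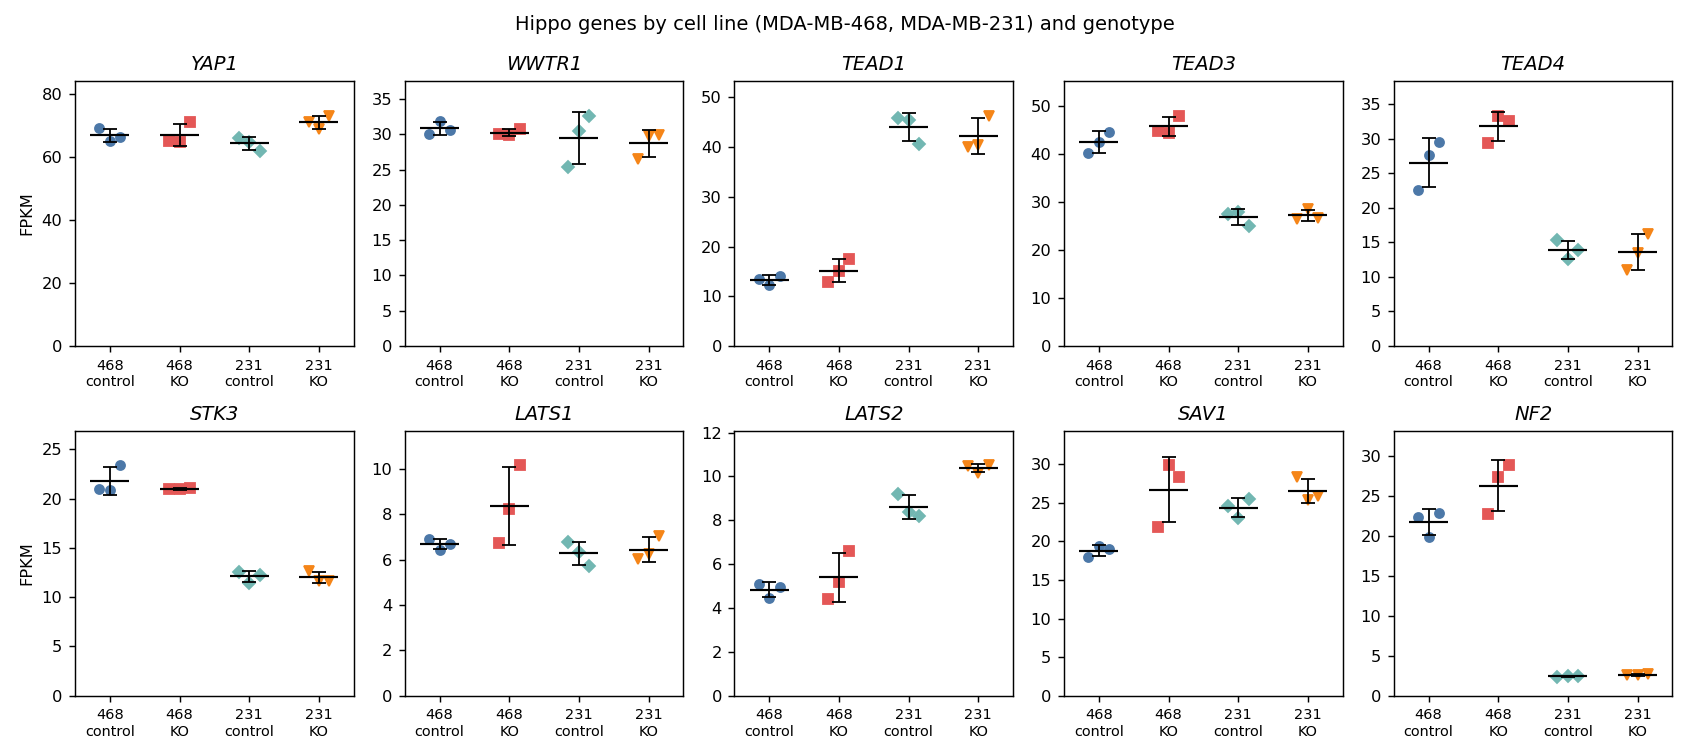
FPKM of the 10 members in each of the 12 samples, with points for samples and lines for group means, by cell line and genotype. YAP1 lies highest in each group, NF2 is near 22 FPKM in control MDA-MB-468 and near 2.4 FPKM in control MDA-MB-231 cells, and control and KO points of most members overlap.

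The first comparison set the control samples of the lines against each other, without KO samples. No difference in YAP1, WWTR1 and LATS1 passed the test, while the lines differed in the amounts of the 3 TEAD factors, of STK3 and LATS2, and of NF2. Of the 10 members, 6 passed an adjusted p under 0.05 with an absolute log2 difference over 0.5, beside 64.1% of all genes under the same rule. The samples of the lines did not overlap for 7 members, beside 85.5% of all genes, so that the counts of members lay near the background. The authors kept only genes whose FPKM varied over the samples, so genes that differ between lines were favoured in the table.

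YAP1 showed 69.3, 65.2 and 66.6 FPKM in control MDA-MB-468 and 66.2, 64.9 and 62.2 FPKM in control MDA-MB-231 samples. The lines overlapped, and the log2 difference, MDA-MB-468 minus MDA-MB-231, was 0.06 (95% interval -0.10 to 0.21; limma, adjusted p = 0.449). For WWTR1, the samples had 30.1, 31.8 and 30.6 FPKM in MDA-MB-468 and 25.4, 30.5 and 32.7 FPKM in MDA-MB-231 cells. These overlapped too, and the log2 difference was 0.07 (95% interval -0.16 to 0.30). At the upper ends of these intervals the lines would differ by folds of 1.16 in YAP1 and 1.23 in WWTR1.

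The TEAD factors, which give YAP and TAZ their DNA binding, differed between the lines in opposite directions. TEAD1 (chr11:12695968-12966284, GRCh37) had 13.4, 12.3 and 14.2 FPKM in control MDA-MB-468 and 45.9, 45.5 and 40.7 FPKM in control MDA-MB-231 samples. Every MDA-MB-231 sample was above every MDA-MB-468 sample, with a log2 difference of -1.66 ± 0.083 (SE; limma, adjusted p = 5.57e-07). TEAD3 had 40.1, 42.5 and 44.6 FPKM in MDA-MB-468 and 27.5, 27.98 and 24.96 FPKM in MDA-MB-231 samples. TEAD4 had 22.5, 27.6 and 29.5 FPKM in MDA-MB-468 and 15.3, 12.6 and 13.8 FPKM in MDA-MB-231 samples. Both were higher in MDA-MB-468 cells without overlap, by 0.64 ± 0.078 for TEAD3 and 0.88 ± 0.115 for TEAD4 on the log2 scale (SE; limma, adjusted p = 0.000102 and 0.000165). The sum of the 3 factors was 82.2 ± 6.12 FPKM in MDA-MB-468 against 84.8 ± 4.75 FPKM in MDA-MB-231 controls (SD, n = 3), with overlapping ranges. TEAD1 made up 16.2 ± 1.35% of the sum in MDA-MB-468 against 51.9 ± 0.837% in MDA-MB-231 controls, TEAD3 51.6 ± 1.099% and 31.6 ± 0.768%, and TEAD4 32.2 ± 2.19% and 16.4 ± 1.54%. Each of these shares differed without overlap (exact permutation test, two-sided, p = 0.1, and 3 samples against 3 allow no smaller). TEAD2, the remaining factor of the family and looked up after the values were seen, had 34.8 ± 2.65 and 11.4 ± 1.49 FPKM, and with it the sums were 117 ± 4.17 FPKM in MDA-MB-468 against 96.2 ± 3.55 FPKM in MDA-MB-231 controls.

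Among the kinases, STK3 had 21.0, 20.9 and 23.4 FPKM in control MDA-MB-468 and 12.6, 11.4 and 12.3 FPKM in control MDA-MB-231 samples. It was higher in each MDA-MB-468 sample, by 0.80 ± 0.077 on the log2 scale (SE; limma, adjusted p = 2.64e-05). LATS2 (chr13:21547175-21635725, GRCh37) went the other way, with 5.10, 4.44 and 4.94 FPKM in MDA-MB-468 and 9.21, 8.39 and 8.22 FPKM in MDA-MB-231 samples. Its log2 difference was -0.72 ± 0.078 (SE; limma, adjusted p = 5.37e-05). LATS1 had 6.91, 6.44 and 6.68 FPKM in MDA-MB-468 and 6.75, 6.33 and 5.72 FPKM in MDA-MB-231 samples, with overlap and a log2 difference of 0.08 (95% interval -0.10 to 0.26). LATS2 therefore made up 41.9 ± 0.970% of both LATS transcripts in MDA-MB-468 against 57.9 ± 0.998% in MDA-MB-231 controls (exact permutation test, p = 0.1, the smallest possible). STK4, the paralogue of STK3 and also looked up afterwards, was lower in MDA-MB-468 cells, at 11.5 ± 0.361 against 17.8 ± 0.717 FPKM.

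Of the adaptors, NF2 lies at chr22:29999545-30094587 in GRCh37, the build of the files, and had 22.4, 19.8 and 22.9 FPKM in control MDA-MB-468 and 2.34, 2.41 and 2.52 FPKM in control MDA-MB-231 samples. Its log2 difference of 2.73 ± 0.077 (SE; limma, adjusted p = 2.22e-08) was the widest of the 10 members, a fold of 6.62 (95% interval 5.85 to 7.503) in FPKM + 1. SAV1 (chr14:51098776-51135024, GRCh37) had 18.0, 19.4 and 19.1 FPKM in MDA-MB-468 and 24.6, 23.04 and 25.5 FPKM in MDA-MB-231 samples. Every MDA-MB-468 sample was lower, and the log2 difference of -0.36 ± 0.072 passed the adjusted p (limma, 0.00194) and stayed under the fold limit. In bulk RNA, fewer cells of a type and less RNA per cell cannot be told apart, here or below.

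**Figure D2:**
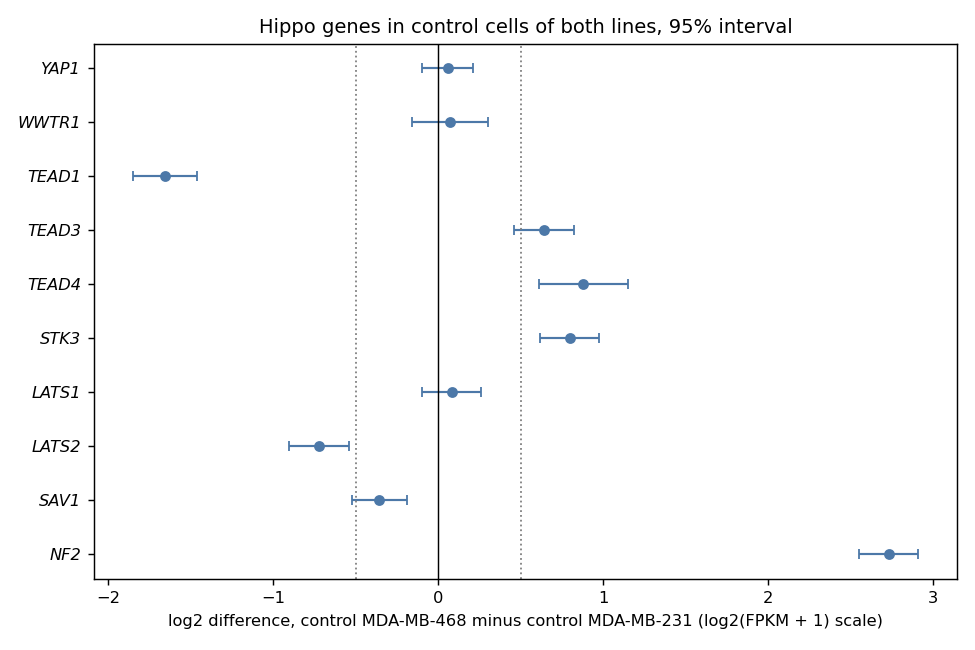
Difference of each member between the control samples of the lines, MDA-MB-468 minus MDA-MB-231, on the log2(FPKM + 1) scale, with 95% intervals from limma and dotted lines at the fold limit of 0.5. NF2 lies at 2.73 and TEAD1 at -1.66, while the intervals of YAP1, WWTR1 and LATS1 span 0.

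The next comparisons asked which members changed with SMARCA4 KO in each line. None of the 10 members was called in either line by the rule used above, on adjusted p and size together (limma, 0 of 10 in MDA-MB-468 and 0 of 10 in MDA-MB-231 cells). Under that rule 2.14% of all genes were called in MDA-MB-468 against 3.7% in MDA-MB-231 cells. At an unadjusted p under 0.05 the counts were 1 in MDA-MB-468, beside 25.1% of all genes, and 2 in MDA-MB-231 cells, beside 31.2%. In MDA-MB-468 cells 7 members had a positive difference, beside 53.6% of all genes, and the median over the 10 was 0.15, against 0.02 over all genes. For MDA-MB-231 these were 6, beside 47.6%, and 0.03, against -0.01. These comparisons use the same control samples as the comparison of the lines. The labels do not say whether replicates came from separate cultures, so the p-values measure only the spread between these samples, which may be technical.

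YAP1, the co-activator with the highest level, had 65.2, 64.7 and 71.1 FPKM in the MDA-MB-468 KO samples, within and around the control values given above. The log2 difference was -0.0011 (95% interval -0.14 to 0.14; limma, adjusted p = 1), so that a change beyond folds of 0.907 to 1.1 lies outside its interval. In MDA-MB-231 KO samples YAP1 had 71.1, 69.1 and 73.3 FPKM, each above every control. The difference of 0.14 ± 0.048 (SE), a fold of 1.103 (95% interval 1.02 to 1.196), did not pass the adjustment (limma, adjusted p = 0.112). The lines' KO differences were not distinguishable from each other (-0.14, 95% interval -0.33 to 0.05; limma, adjusted p = 0.280). WWTR1 had 30.1, 29.9 and 30.8 FPKM in MDA-MB-468 KO samples and 26.6, 29.8 and 29.8 FPKM in MDA-MB-231 KO samples. Both sets overlapped their controls, with log2 differences of -0.03 (95% interval -0.14 to 0.08) and -0.03 (95% interval -0.29 to 0.23). The share of YAP1 in the sum of YAP1 and WWTR1 was 68.5 ± 1.25% in control and 68.9 ± 0.773% in KO MDA-MB-468 cells, and 68.6 ± 3.39% and 71.3 ± 1.46% in MDA-MB-231 cells (SD, n = 3; exact permutation test, p = 0.9 and 0.3).

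TEAD factors overlapped between KO and control in both lines. In MDA-MB-468 KO samples TEAD1 had 12.97, 15.01 and 17.5 FPKM, TEAD3 44.8, 44.2 and 47.9 FPKM, and TEAD4 29.4, 33.3 and 32.6 FPKM. Their log2 differences from control were 0.17 (95% interval -0.11 to 0.45), 0.11 (-0.04 to 0.25) and 0.26 (-0.02 to 0.53). The smallest of their adjusted p was that of TEAD4 (limma, 0.220). In MDA-MB-231 KO samples TEAD1 had 40.0, 40.3 and 46.4 FPKM, TEAD3 26.4, 28.5 and 26.7 FPKM, and TEAD4 11, 13.5 and 16.2 FPKM. These differences were -0.06 (-0.26 to 0.14), 0.02 (-0.13 to 0.17) and -0.05 (-0.40 to 0.31). The difference between lines described above was thus present in KO cells too, where TEAD1 made up 16.3 ± 1.48% of the 3 factors in MDA-MB-468 against 50.9 ± 1.63% in MDA-MB-231 cells. TEAD2 had 31.6 ± 7.52 FPKM in MDA-MB-468 against 14.5 ± 1.25 FPKM in MDA-MB-231 KO cells, and its difference from control did not pass the adjustment in either line (limma, adjusted p = 0.607 and 0.106).

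STK3 had 21.0, 20.9 and 21.1 FPKM in MDA-MB-468 and 12.7, 11.7 and 11.7 FPKM in MDA-MB-231 KO samples, with log2 differences of -0.05 (95% interval -0.19 to 0.09) and -0.01 (-0.15 to 0.13). STK3 starts the kinase cascade, and its samples overlapped the controls in both lines. LATS1 had 6.73, 8.21 and 10.2 FPKM in MDA-MB-468 KO samples, where 1 sample lay among the controls and the others above, and its log2 difference was 0.27 (-0.06 to 0.61; limma, adjusted p = 0.275). In MDA-MB-231 KO samples LATS1 had 6.03, 6.24 and 7.05 FPKM, with a difference of 0.03 (-0.16 to 0.23).

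LATS2, which YAP and TAZ are known to induce as a feedback, had 10.5, 10.2 and 10.5 FPKM in MDA-MB-231 KO samples. All 3 lay above the controls, which reached 9.21 FPKM, and the log2 difference was 0.25 ± 0.054 (SE), a fold of 1.19 (95% interval 1.08 to 1.30). This passed an adjusted p under 0.05 (limma, 0.0450) and stayed under the fold limit. It was the 1 member of 10 past the adjusted p alone in that line, beside 10.8% of all genes. Without any 1 sample other than control replicate 1 the adjusted p was over 0.05, for example 0.126 without KO replicate 1. It was also over 0.05 with a pseudocount of 0.1 (0.0501), a filter on the mean level (0.0509), an intensity trend (0.0712), quantile normalization (0.0717), 1 fit of all samples (0.133) and the block (0.117), with differences of 0.21 to 0.27. In MDA-MB-468 KO samples LATS2 had 4.42, 5.18 and 6.60 FPKM, on both sides of the controls, with a difference of 0.12 (95% interval -0.20 to 0.45). Without KO replicate 3 this difference was -0.01.

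The balance of LATS1 and LATS2 moved in opposite directions in the lines. LATS2 made up 42.5%, 40.8% and 42.5% of both transcripts in control and 39.6%, 38.7% and 39.4% in KO MDA-MB-468 samples. In MDA-MB-231 samples it made up 57.7%, 57.0% and 59.0% in control and 63.5%, 62.0% and 59.9% in KO cells. The share was lower in each MDA-MB-468 KO sample and higher in each MDA-MB-231 KO sample than in the controls, by -2.69 and 3.88 percentage points. Each change had an exact permutation p of 0.1, the smallest possible, and 0.5 after Benjamini-Hochberg adjustment over 10 shares. The difference between these changes was -6.56 percentage points (two-sided exact test over 400 regroupings of KO labels within the lines, p = 0.005, the smallest it can give; 0.025 adjusted over 5 shares). That test was chosen after the shares had been seen, and it takes no account of the replicate numbers. With MDA-MB-468 labels exchanged only within samples of the same replicate number, over 160 regroupings, the exact p was 0.0125, again the smallest possible. Adjusted over 5 shares it was 0.0625. No smaller adjusted value was possible here, since the other shares had p of 0.0875 or more, so that this test could not make a call. On the log2 scale, neither LATS1 nor LATS2 alone differed in its KO change between the lines (limma, adjusted p = 0.339 and 0.604).

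**Figure D3:**
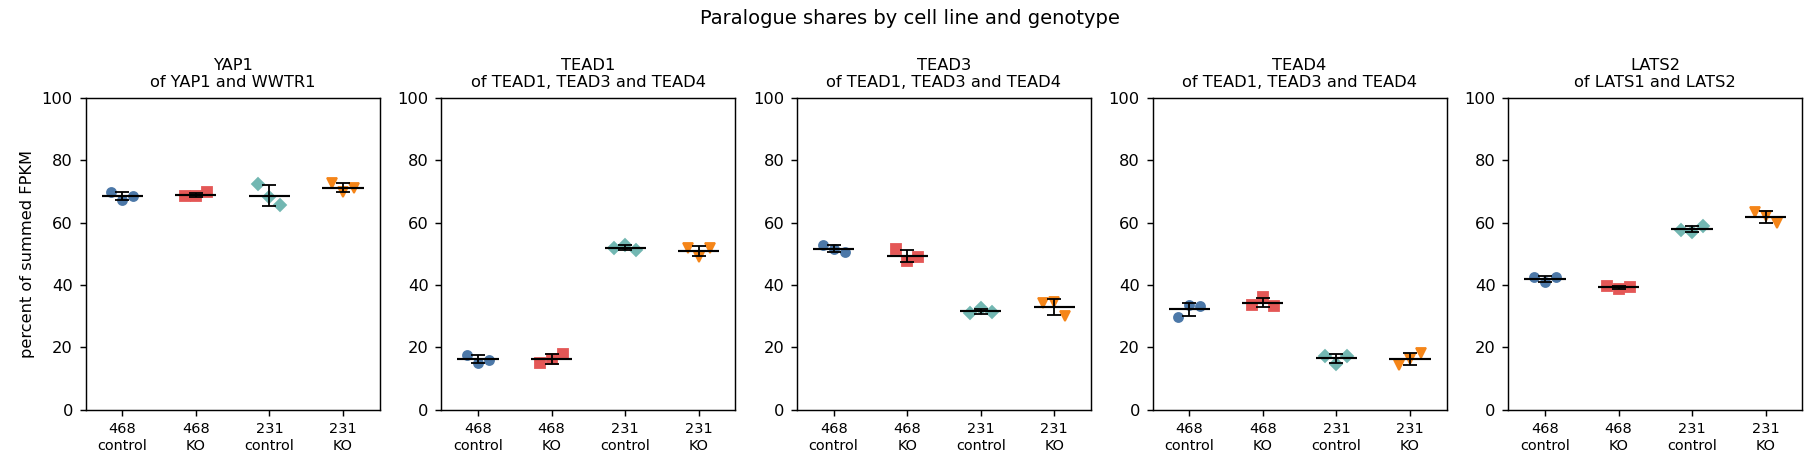
Percent of summed FPKM taken by YAP1 within YAP1 and WWTR1, by each TEAD within TEAD1, TEAD3 and TEAD4, and by LATS2 within LATS1 and LATS2, per sample with group means. TEAD1 lies near 16% in MDA-MB-468 against 51% in MDA-MB-231 cells, and the LATS2 share is lower in KO than control samples of MDA-MB-468 and higher in those of MDA-MB-231 cells.

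SAV1, the scaffold of STK3 and STK4, came nearest to a call in MDA-MB-468 cells. KO samples had 21.9, 29.9 and 28.4 FPKM against at most 19.4 FPKM in the controls, without overlap, as for 31% of all genes in this line. The log2 difference was 0.47 ± 0.121 (SE), a fold of 1.39 (95% interval 1.13 to 1.71; limma, adjusted p = 0.0869). In a fit blocked on the replicate numbers, taken as pairs in this line, the adjusted p was 0.0775. Without KO replicate 1, the lowest KO sample for SAV1, the difference was 0.60 and the gene was called (adjusted p = 0.0193). That fit called 4.11% of all genes, against 2.14% in the main fit. Without any other 1 sample SAV1 was not called, with adjusted p of 0.175 to 0.225 (limma), in fits that called 0 to 27 of all genes. With the p number of the descriptions as a block, where the samples without a partner of the same p number were joined, the adjusted p of SAV1 was 0.194. It was 0.0496 with a filter on the mean level and 0.0125 in 1 fit of all samples, both under the fold limit. In MDA-MB-231 KO samples SAV1 had 28.4, 25.4 and 25.95 FPKM, overlapping the controls, with a difference of 0.12 (95% interval -0.04 to 0.28). Between the lines the KO difference of SAV1 differed by 0.35 ± 0.144 (SE; limma, adjusted p = 0.116). Without MDA-MB-468 KO replicate 1 it was 0.49 and passed (adjusted p = 0.0102), beside 16.5% of all genes. Without any other 1 sample it did not pass (limma, adjusted p of 0.1155 to 0.247).

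NF2 had 22.7, 27.4 and 28.8 FPKM in MDA-MB-468 KO samples, 1 of them within the control range, and a log2 difference of 0.26 (95% interval -0.0009 to 0.52; limma, adjusted p = 0.200). In MDA-MB-231 KO samples it had 2.54, 2.55 and 2.69 FPKM, just above the controls, which reached 2.52 FPKM. That difference was 0.07 (95% interval -0.04 to 0.18), and NF2 kept the low level of its line. With YAP1 and LATS2 it made 3 members without overlap in MDA-MB-231 cells, all higher in KO, beside 36% of all genes without overlap and 16.6% without overlap and higher. Over the 10 members, 0 passed the test of a difference of the KO change between the lines (limma), beside 14.7% of all genes, and 1, SAV1, had an unadjusted p under 0.05, beside 31.5%.

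**Figure D4:**
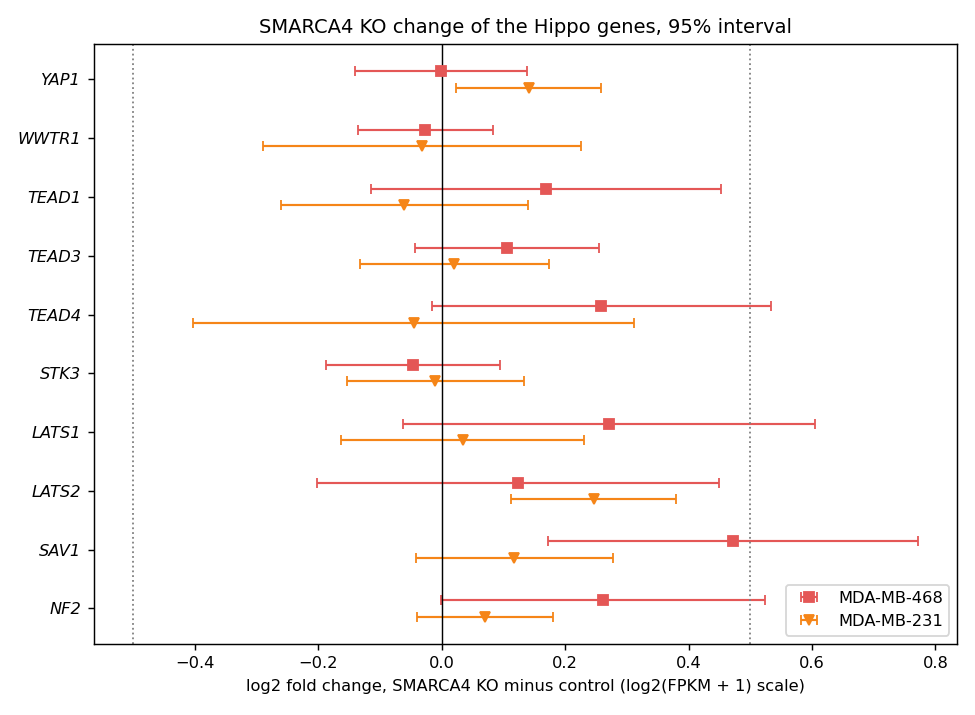
Difference of each member between KO and control, per line, on the log2(FPKM + 1) scale, with 95% intervals from limma and dotted lines at the fold limit of 0.5. No point passes the limit, SAV1 at 0.47 in MDA-MB-468 cells lies nearest to it, and most intervals span 0.

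The MDA-MB-468 KO samples differed among themselves over the members. With each gene set against its line's control mean, the median over the 10 members was -0.01 on the log2 scale in KO replicate 1, 0.13 in replicate 2 and 0.33 in replicate 3, with 5, 7 and 8 members above 0. In MDA-MB-231 KO samples the medians were 0.01, 0.04 and 0.10. No median over all genes is set beside these for single samples, so a shift of a whole sample cannot be told apart here. In KO replicate 3 of MDA-MB-468, LATS1, TEAD1, NF2 and LATS2 stood at their highest, while in KO replicate 1 they lay within or below the control values. SMARCA4 was 39.7 FPKM in KO replicate 1, the lowest of the 3.

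**Figure D5:**
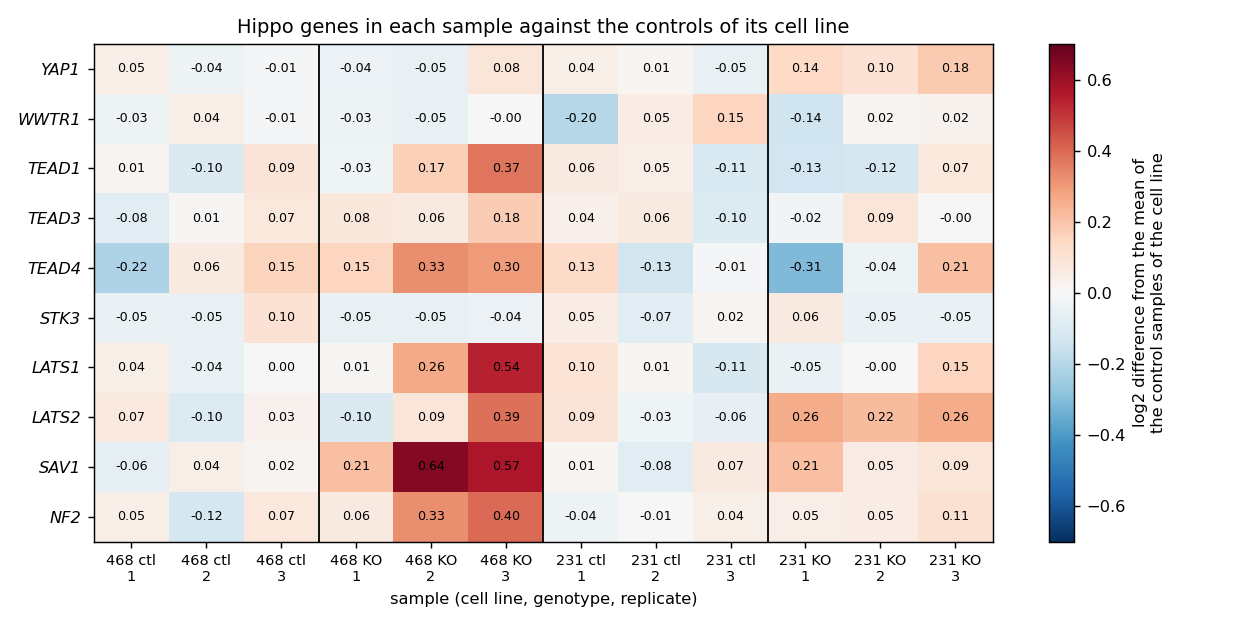
Log2(FPKM + 1) of each member minus the mean of its line's controls, for every sample, as a color scale. In MDA-MB-468 cells KO replicate 3 is above 0 for 8 members and KO replicate 1 for 5, and the MDA-MB-231 samples lie closer to 0.

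Across the 12 samples, with each gene centred on its line's mean, pairs of members varied together to different degrees. TEAD1 and LATS1 had the highest Pearson r (0.916), then SAV1 and NF2 (0.854), YAP1 and LATS2 (0.844), and LATS1 and NF2 (0.836). YAP1 and WWTR1 had r of -0.31. Of all 10187 genes compared in this way, HPS4 (r = 0.960), KMT2E (0.958) and SIPA1L3 (0.951) were most like YAP1. For WWTR1 these were RNF167 (0.905), CKLF (0.903) and HSPE1-MOB4 (0.902), whose transcript joins neighbouring genes and may share their reads. For LATS2 they were AFAP1 (0.938), STK40 (0.934) and ITGA2 (0.924). The points share libraries and genotype, and the values are descriptions.

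The other genes of the pathway were counted by the same rule. Of 72 such genes analysed, of 77 listed, 0 were called in MDA-MB-468 KO cells, beside 2.14% of all genes (limma). Of these 72, 36 differed upward, beside 53.6% of all genes, and 19 had an unadjusted p under 0.05, beside 25.1%. WWC3, a scaffold of the WWC family that acts on LATS kinases, was lower, with 20.1 ± 0.952 FPKM in control and 14.6 ± 0.508 FPKM in KO cells. Its log2 difference of -0.43 passed the adjusted p (limma, 0.0252) and not the fold limit. In MDA-MB-231 cells WWC3 was higher, with 29.6 ± 0.837 FPKM in control and 36.8 ± 0.358 FPKM in KO cells, a difference of 0.31 (adjusted p = 0.0169). Next in MDA-MB-468 cells, short of the adjusted p, were STK38L, a kinase related to LATS1 (-0.44, adjusted p = 0.0819), the polarity gene LLGL2 (0.17, 0.0840), and PPP2CA, a catalytic subunit of the phosphatase that acts on STK3 and STK4 (0.29, 0.0885).

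In MDA-MB-231 KO cells 1 of the 72 was called, beside 3.7% of all genes. This was LLGL2, with 4.23 ± 0.620 FPKM in control and 6.39 ± 0.642 FPKM in KO cells, a log2 difference of 0.50 (limma, adjusted p = 0.0460). The count was 0 without any 1 sample other than control replicate 2, in fits that called 0.859% to 2.7% of all genes. AJUBA, a LIM protein that holds LATS kinases back, was lower, from 63.5 ± 1.58 to 49.5 ± 1.27 FPKM (log2 difference -0.36, adjusted p = 0.0137). The kinase MINK1 (0.28, adjusted p = 0.0229) and TP73, a partner of YAP (0.26, adjusted p = 0.0271), were higher, all under the fold limit. By role, 7 of 18 inhibitors of the kinases, 7 of 19 upstream scaffolds, 5 of 14 kinases and MOB cofactors, 6 of 13 genes of YAP and TAZ retention and turnover, 3 of 4 nuclear partners and 2 of 4 RASSF scaffolds had an unadjusted p under 0.05 in this line, beside 31.2% of all genes. In control cells 42 of the 72 differed between the lines, beside 64.1% of all genes.

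Among 21 published YAP and TAZ targets, without LATS2, 1 was called in MDA-MB-468 against 2 in MDA-MB-231 KO cells, beside 2.14% and 3.7% of all genes. At an unadjusted p under 0.05 the counts were 10, beside 25.1% of all genes, and 8, beside 31.2%. In the difference of the KO change between the lines 6 were called, beside 14.7% of all genes. In MDA-MB-468 cells NUAK2, a kinase of the AMPK family, rose from 2.79 ± 0.225 to 7.01 ± 1.85 FPKM (SD, n = 3), a log2 difference of 1.05 ± 0.183 (SE; limma, adjusted p = 0.0444). In a fit blocked on replicate numbers 0 targets were called in this line, beside 2.09% of all genes. The count was also 0 without any 1 sample other than KO replicate 1, in fits that called 0 to 27 of all genes. Without KO replicate 1 the count was 3, beside 4.11% of all genes. CTGF, a secreted matrix protein and a classical YAP target, had 8.16 to 14.02 FPKM in control and 18.6 to 26.9 FPKM in KO cells, short of the threshold (1.12, adjusted p = 0.0592). NT5E, an ectonucleotidase, and CRIM1, a membrane protein that binds BMPs, had differences of 1.07 and 0.41 (adjusted p = 0.0771 and 0.0761). Of the 21 targets, 16 had a positive difference, beside 53.6% of all genes, and the median was 0.21, against 0.02 over all genes. The 16 include AXL, FOXF2 and RBMS3, whose group means in this line were at most 0.24 FPKM, too low to read a direction. In MDA-MB-231 cells IGFBP3, an IGF binding protein, rose from 20.7 ± 2.59 to 39.8 ± 2.53 FPKM (0.92 ± 0.102; limma, adjusted p = 0.0109). ANKRD1, another classical target, fell from 136 ± 21.5 to 89.6 ± 6.77 FPKM (-0.59 ± 0.122; limma, adjusted p = 0.0400). Without KO replicate 1 or KO replicate 2 the count in this line was 0, beside 1.5% and 0.859% of all genes. Without any other 1 sample it was 1, beside 2.29% to 2.7% of all genes. In that line 9 targets were positive, beside 47.6% of all genes, and 12 negative, with a median of -0.03, and CTGF had a difference of -0.84 (adjusted p = 0.0910). DOCK5 and ASAP1, which act on small GTPases, had differences of 0.22 (adjusted p = 0.0440) and 0.38 (adjusted p = 0.0503). In control cells 19 of the 21 targets differed between the lines, beside 64.1% of all genes, 14 of them lower in MDA-MB-468 cells, beside 31.4% of all genes that were called lower.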

How the data were processed

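Poly(A) RNA of 12 samples of 2 cell lines was sequenced. The authors trimmed reads, aligned them to hg19 with STAR 2.5.2a, estimated FPKM per gene with RSEM 1.1.13, removed genes with an average or SD of FPKM under 1, and deposited log2 values. The deposited log2 values are log2(FPKM + 1), and FPKM was recovered by removing the pseudocount of 1. No counts were used, so depth and counting error are unknown, and levels of paralogues rest on how RSEM divided shared reads. The symbol of 18 rows is a date, and these rows were kept in the tests.

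Each line was fitted alone with limma 3.58.1 (lmFit, eBayes without a trend) in R 4.3.3, 3 KO against 3 control samples, with Benjamini-Hochberg adjustment over 11529 genes. A call needed an adjusted p under 0.05 together with a log2 difference over 0.5 in size. The difference of KO changes between lines was an interaction in 1 fit of all 12 samples, called on the adjusted p alone. Control samples of the lines were fitted together. Shares within families used FPKM and two-sided exact permutation tests. The members and the lists of other Hippo genes, targets and markers were chosen with earlier results of these data known. Named genes were all members, SMARCA4, and, for each list and line, every called gene and, where fewer than 4 were called, the 4 of smallest unadjusted p. Genes most like YAP1, WWTR1 and LATS2 were the 3 of highest r among genes with a mean log2 value over 2. Alternatives covered pseudocount, filter, trend, scaling, thresholds, block and leaving out each sample. Positions of the guide are GRCh37. The main limma fits were tested on simulated data with independent noise, and the alternative fits and share tests were not.

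Replicate numbers in the titles were used as pairs where same-numbered samples deviated together: r was 0.25, 0.16 and 0.12 in MDA-MB-468, over 0.1 in each pair, and -0.05, 0.07 and -0.11 in MDA-MB-231 cells. Unmatched samples reached like values, with r of 0.13 for control 3 and KO 2 in MDA-MB-468. For control 1 and KO 3 in MDA-MB-231 cells r was 0.22. These r therefore do not tell pairs from other combinations, and whether the samples were paired is not known. In MDA-MB-468, samples of the same replicate number have different p numbers. There, control 3 and KO 1 have no partner of the same p number. For the block by p number they were joined as 1 pair.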

Additional observations from a re-analysis of the deposited data

Results flagged for a closer look

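Of the 26 genes named by rule, 10 differed between the lines in their KO change by the interaction test (limma, adjusted p under 0.05), beside 14.7% of all genes, and 0 of these were members. Each value is the KO change in MDA-MB-468 minus that in MDA-MB-231 cells on the log2(FPKM + 1) scale, over 12 samples. Among the targets of YAP and TAZ the difference was 1.96 for CTGF (adjusted p = 0.00453), 1.45 for NT5E (0.00665), 0.92 for NUAK2 (0.0185), 0.55 for CRIM1 (0.0249) and -0.57 for ASAP1 (0.0397). CTGF and NT5E were higher in every MDA-MB-468 KO sample and lower in every MDA-MB-231 KO sample than in the controls of the same line. Among the other Hippo genes it was -0.74 for WWC3 (adjusted p = 0.000426), 0.74 for AJUBA (0.00529), 0.53 for PPP2CA (0.0176) and -0.36 for MINK1 (0.0252). For SMARCA4 it was 0.41 (adjusted p = 0.0270), with the larger decrease in MDA-MB-231 cells. These genes were partly chosen for a small p in 1 of the lines, which favours a difference between the lines.

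The share of LATS2 in both LATS transcripts differed in its KO change by -6.56 percentage points between the lines (exact test over 400 regroupings, chosen after the shares had been seen, p = 0.025 adjusted over 5 shares), with no overlap between KO and control samples in either line. With the replicate pairs of MDA-MB-468 kept, over 160 regroupings, the adjusted p was 0.0625, and no smaller value was possible. Leaving out each sample in turn gave -7.52 to -5.72 percentage points. No cause was tested.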

How the results depend on the processing

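Of 485 values recomputed under other settings, 458 were rated the same, as were 427 of 486 recomputed without 1 sample. For single genes this meant the same direction and side of the threshold. For counts it meant a count equal or close to the main one, and for the KO change of a share within a line the same direction. In MDA-MB-468 KO cells the count of other Hippo genes called was 1 without the fold limit, beside 3.75% of all genes. The count of targets there was 3 with a filter on a mean log2 value over 2, beside 3.9% of the genes kept. It was 3 with an unadjusted p and the fold limit kept, beside 5.33% of all genes, and 3 in 1 fit of all samples, beside 4.66%. The count was 0 with the replicate number (beside 2.09% of all genes) or the p number of the descriptions as a block. SMARCA4 kept its log2 difference of -1.16 and lost its call with the p number as a block (adjusted p = 0.140). This block joined control replicate 3 and KO replicate 1, which have different p numbers and no partner. With that block 0 of all genes were called in this line. In MDA-MB-231 KO cells, without the fold limit, 1 member and 9 other Hippo genes were called, beside 10.8% of all genes. The count of other Hippo genes there was 0 with a pseudocount of 0.1, beside 4.48%, and 0 with quantile normalization, beside 3.62%. There same-numbered samples did not deviate together. With replicate numbers as a block, 0 other Hippo genes, 0 targets and 0 of all genes were called in that line. SMARCA4 then kept -1.57 with an adjusted p of 0.0520. No member was called in the main fits, so the block could take away no call of a member. In MDA-MB-231 cells, with 0 of all genes called, it could add none. The adjusted p of LATS2 there went from 0.0450 to 0.117 (limma). In MDA-MB-468 cells the replicate block called 0 members, beside 2.09% of all genes. For the difference of the LATS2 share between the lines (-6.56 percentage points), the exact test with the MDA-MB-468 pairs kept gave an adjusted p of 0.0625. No smaller value was possible over its 160 regroupings with the other shares as they were, so this setting could not make a call. With an unadjusted p, 1 member differed between the lines in its KO change, beside 31.5% of all genes. The cause of these moves was not tested.

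Single genes that changed sign had values close to 0: with scaling to the 75th percentile, WWTR1 (0.0034) and STK3 (0.024) in MDA-MB-231 KO cells and WWTR1 (-0.041) in the difference between the lines, and with quantile normalization LATS1 (-0.023) and NF2 (-0.028) in MDA-MB-231 KO cells, WWTR1 (-0.034) in the difference between the lines and LATS1 (-0.017) between controls. With TEAD2 in the sum, an alternative chosen after the data were seen, the change of the TEAD3 share reversed from -2.24 to 0.553 percentage points in MDA-MB-468 cells, and its difference between the lines from -3.48 to 0.457. No scaling moved the median of all genes by over 0.1. With the 75th percentile, higher genes were 74.2% of the calls in MDA-MB-231 cells, against 64.6%, and 41.6% of the differences between the lines, against 53.7%.

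Without 1 sample at a time, the count of members ranged from 0 to 1 in MDA-MB-468 cells and from 0 to 1 in the difference between the lines, with the 1 being SAV1 without MDA-MB-468 KO replicate 1. Of all genes, 0% to 4.11% were called in MDA-MB-468 cells and 8.01% to 16.5% in the difference. The highest shares were also those without MDA-MB-468 KO replicate 1. Targets ranged from 0 to 3 in MDA-MB-468 and from 0 to 1 in MDA-MB-231 cells, where other Hippo genes ranged from 0 to 1. In MDA-MB-231 cells 0.859% to 2.7% of all genes were called in these fits. SMARCA4 ranged from -1.23 to -1.10 in MDA-MB-468 cells and lost its call without control replicate 2, control replicate 3 or KO replicate 2 (adjusted p = 0.0696, 0.0565 and 0.0748). Without control or KO replicate 2 the count over all genes was 0 in that line. Shares ranged from -0.239 to 1.01 percentage points for YAP1 and -0.671 to 0.807 for TEAD1 in MDA-MB-468 cells, from -1.13 to 0.850 for TEAD4 in MDA-MB-231 cells, and from -4.96 to -2.61 for the difference of TEAD3. Members that crossed 0 were YAP1 (-0.044 to 0.023), STK3 (-0.074 to 0.0042) and LATS2 (-0.0080 to 0.24) in MDA-MB-468 cells, and WWTR1 (-0.13 to 0.042), TEAD3 (-0.029 to 0.051), TEAD4 (-0.17 to 0.087), STK3 (-0.048 to 0.016) and LATS1 (-0.024 to 0.082) in MDA-MB-231 cells. WWTR1 (-0.068 to 0.11) and STK3 (-0.063 to 0.015) crossed 0 in the difference between the lines, and WWTR1 (-0.032 to 0.14) between controls. With 3 samples a group and an unknown depth, differences within these ranges were not resolved.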
